A study of Mus musculus with 4 samples.

Results

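Stool bacteria of mice given vancomycin by injection into the peritoneal cavity were compared with those of mice given phosphate-buffered saline (PBS) by the same route. The comparison took the fecal libraries labelled day 4, intraperitoneal, vancomycin (6 libraries, counted as 5 samples) and day 4, intraperitoneal, PBS (5 libraries, 5 samples), out of 198 libraries of the study and 91 of day 4. The mice were wild-type C57BL6/J animals of 8 to 12 weeks. Each dose held 2.5 mg of vancomycin in 100 µl of PBS, or PBS alone, and doses were given over 3 full days with a last dose on day 4, 4 hours before euthanasia. Bacteria were identified by sequencing the V4 part of their 16S rRNA genes, amplified from feces. The labels name 2 DNA extraction kits without saying which library used which, and nothing in the sources used here says how the mice were caged. The values are shares of the reads of a library, so a higher share of a genus and a lower total of all others cannot be told apart.

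Vancomycin is a glycopeptide that binds the cell wall precursors of Gram-positive bacteria, and it is large enough that the outer membrane of Gram-negative bacteria keeps most of it out. It is poorly absorbed from the gut and after injection leaves the body mainly through the kidney. Mouse stool is dominated by Muribaculaceae, a family of Gram-negative Bacteroidales that ferment plant and host glycans, and by Firmicutes such as Lachnospiraceae and Oscillospirales, which hold many butyrate producers. Names of taxa are those of the deposited table, where letters and numbers stand in for bacteria without a formal name, and "unclassified" followed by a family means reads placed no lower than that family.

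Libraries of the compared mice held 9179 to 46424 reads (vancomycin 9179 to 40311, PBS 16555 to 46424). The reads of vancomycin replicates 1 and 5 agreed within sampling noise (chi-square 1.04 per degree of freedom, 59 degrees of freedom, p = 0.395), whereas the other 14 of 15 pairs of intraperitoneal vancomycin libraries had at least 115 per degree of freedom. They were therefore averaged and counted as 1 sample, although the day 0 libraries of these mice did differ (10.6 per degree of freedom). Vancomycin replicate 3 stood apart from every other sample, and vancomycin replicate 6 was the shallowest library. A genus listed at 0 can make up as much as 3 reads of its library, which allows 0.00759% to 0.0130% in the other vancomycin samples and 0.0327% in replicate 6. Such limits cover counting error only. The separate replicates carry names of different mice. Exact permutation p-values rest on the spread between these samples, whereas those of limma use a spread shared by all day 4 groups.

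The 5 vancomycin samples did not share 1 composition. Replicates 1 and 5 held 41.4% Akkermansia, a mucin-degrading member of Verrucomicrobiota, with 17.4% UBA7173 of Muribaculaceae and 11.1% Parabacteroides_B_862066. Replicate 2 held 28.0% UBA7173, 18.1% unclassified Muribaculaceae and 11.4% Akkermansia. Replicate 4 held 22.2% UBA7173, 19.7% Duncaniella, another genus of Muribaculaceae, and 16.7% unclassified Lachnospiraceae. Replicate 6 held 19.5% UBA7173, 18.3% CAG-485, also of Muribaculaceae, and 15.8% unclassified Muribaculaceae, followed by 15.8% Prevotella, a genus of plant polysaccharide degraders. Replicate 3 was 83.4% Parabacteroides_B_862066, 5.52% Parasutterella and 3.18% Pelethenecus, so that 92.1% of its reads lay in 3 genera.

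At family level Muribaculaceae made up 26.6% of reads in vancomycin replicates 1 and 5, 65.1% in replicate 2, 0.261% in replicate 3, 66.8% in replicate 4 and 71.3% in replicate 6. In PBS replicates 1 to 5 the family held 69.3%, 57.6%, 70.0%, 53.0% and 77.1%. Replicates 2, 4 and 6 lay within the PBS range, replicates 1 and 5 lay below it, and replicate 3 had almost no reads of the family. The family did not pass the test (log2 change -1.80, limma adjusted p = 0.367).

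**Figure D1:**
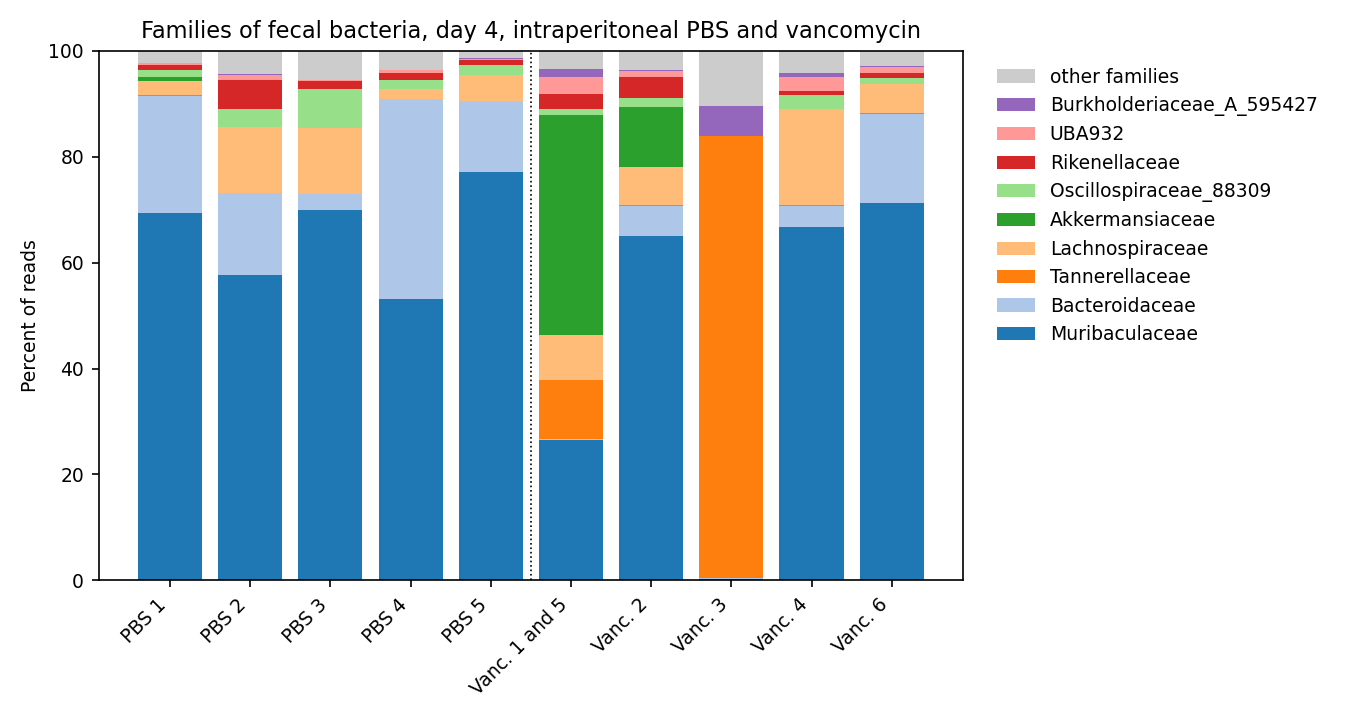
Percent of reads of the main bacterial families (vertical axis) in each day 4 sample (horizontal axis), 5 intraperitoneal PBS samples on the left and 5 intraperitoneal vancomycin samples on the right, with bars stacked to 100%. Muribaculaceae fill 53.0% to 77.1% of each PBS sample, while Akkermansiaceae reach 41.4% in vancomycin replicates 1 and 5 and Tannerellaceae 83.4% in vancomycin replicate 3.

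Distances between samples showed the same spread. The Bray-Curtis distance, which is 0 for like compositions and 1 for compositions that share no taxon, averaged 0.686 ± 0.254 (SD, 10 pairs) between vancomycin samples and 0.342 ± 0.0788 (SD, 10 pairs) between PBS samples. Between vancomycin and PBS samples it averaged 0.683 ± 0.187 (SD, 25 pairs), near the value among vancomycin samples. Replicate 3 was 0.856 to 0.988 from the other vancomycin samples and 0.987 on average from PBS. Replicates 2, 4 and 6 were the closest to each other (0.366 to 0.418) and to PBS (means of 0.562, 0.562 and 0.514), and replicates 1 and 5 had a mean of 0.788 to PBS. An exact permutation test of the distances passed, with an R2 of 0.315 (p = 0.00794, the smallest that 5 against 5 samples allow, adjusted p = 0.0149 over 15 comparisons of antibiotic and route). It responds to unequal spread within the groups as well as to a shift between them, and these were not tested apart. At family level R2 was 0.189 and did not pass the exact test (adjusted p = 0.102).

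Fewer taxa were found after vancomycin. The libraries held 66, 81, 35, 79 and 62 taxa in replicates 1 and 5, 2, 3, 4 and 6, against 109, 146, 107, 111 and 107 in PBS replicates 1 to 5. All 5 vancomycin samples lay below all 5 PBS samples, with a difference of -51.4 taxa in the means (64.6 ± 18.4 against 116 ± 16.9, SD, n = 5 each), and the two-sided exact permutation test passed (adjusted p = 0.0238 over the 15 comparisons). With every library thinned to 1000 reads the difference was -24.0 taxa (exact permutation, adjusted p = 0.0216). Counted in families it was -9.80 and did not pass (exact permutation, adjusted p = 0.0714).

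The Shannon index, which weighs how many taxa there are and how evenly reads fall among them, was 2.13, 2.72, 0.789, 2.63 and 2.57 after vancomycin in the same order and 2.77, 3.33, 3.22, 2.59 and 2.89 after PBS. Replicate 3 was far below all others, and replicates 2 and 4 lay within the PBS range. The means were 2.17 ± 0.803 and 2.96 ± 0.310 (SD, n = 5 each), and the difference of -0.796 did not pass after adjustment (exact permutation p = 0.0238, adjusted p = 0.0510). It passed without vancomycin replicate 2 (-0.934, adjusted p = 0.0340) or without replicate 4 (-0.910, adjusted p = 0.0340, both exact permutation), was -0.451 without replicate 3, and was 0.0743, the other sign, when computed over families.

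To describe losses, genera were taken that made up at least 0.1% of reads on average in PBS and at least 0.01% in every PBS sample, and a genus was called lost in a vancomycin sample where it was under 0.01%. This is a description with no test. Of 34 such genera, 2 were lost in all 5 vancomycin samples, 22 were lost in some, and 10 were lost in none. The 2 genera lost in all, COE1 and UBA3282, both of Lachnospiraceae, together held 0.981% of PBS reads. The 22 that varied held 32.7%, and the 10 that were kept held 62.5%.

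COE1 was listed at 0 in all vancomycin samples and stood at 0.456%, 0.181%, 1.98%, 0.276% and 0.720% in PBS replicates 1 to 5. No PBS sample came near 0, and the mean of 0.723% ± 0.733 (SD, n = 5) was at least 50.0-fold above the limit of 3 reads, averaged over the vancomycin samples. The log2 change was -5.69 (SE 1.07, limma adjusted p = 3.78e-05). UBA3282 was likewise at 0 in all vancomycin samples and at 0.290%, 0.373%, 0.248%, 0.116% and 0.264% in PBS, a mean of 0.258% ± 0.0929 (SD, n = 5). It was at least 17.8-fold lower (log2 change -4.66, SE 0.984, limma adjusted p = 0.000276). Both passed the test whichever sample was left out. In the vancomycin mice whose day 0 library held over 1000 reads, replicates 1 and 4, COE1 had been at 1.21% and 2.54% and UBA3282 at 0.145% and 0.445% before treatment. With each mouse's own day 0 library as the baseline the log2 changes were -4.31 (adjusted p = 0.160) and -2.80 (adjusted p = 0.720), and neither passed. With the day 0 libraries of at least 1000 reads alone, COE1 did (-7.24, adjusted p = 0.00343) and UBA3282 did not (-3.24, adjusted p = 0.580).

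The number of vancomycin samples that had lost a genus took every value from 0 to 5. It was 4 for 3 genera, 3 for 3 genera, 2 for 1 genus and 1 for 15 genera. Replicates 1 and 5 had lost 10 of the 34 genera, replicate 2 had lost 5, replicate 3 had lost 21, and replicates 4 and 6 had lost 6 each. Of the 15 genera lost in a single sample, 13 were lost in replicate 3 and 2 in replicates 1 and 5. Without replicate 3, 2 genera were lost in all, 9 varied and 23 were kept, so that replicate 3 set most of the variation.

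**Figure D2:**
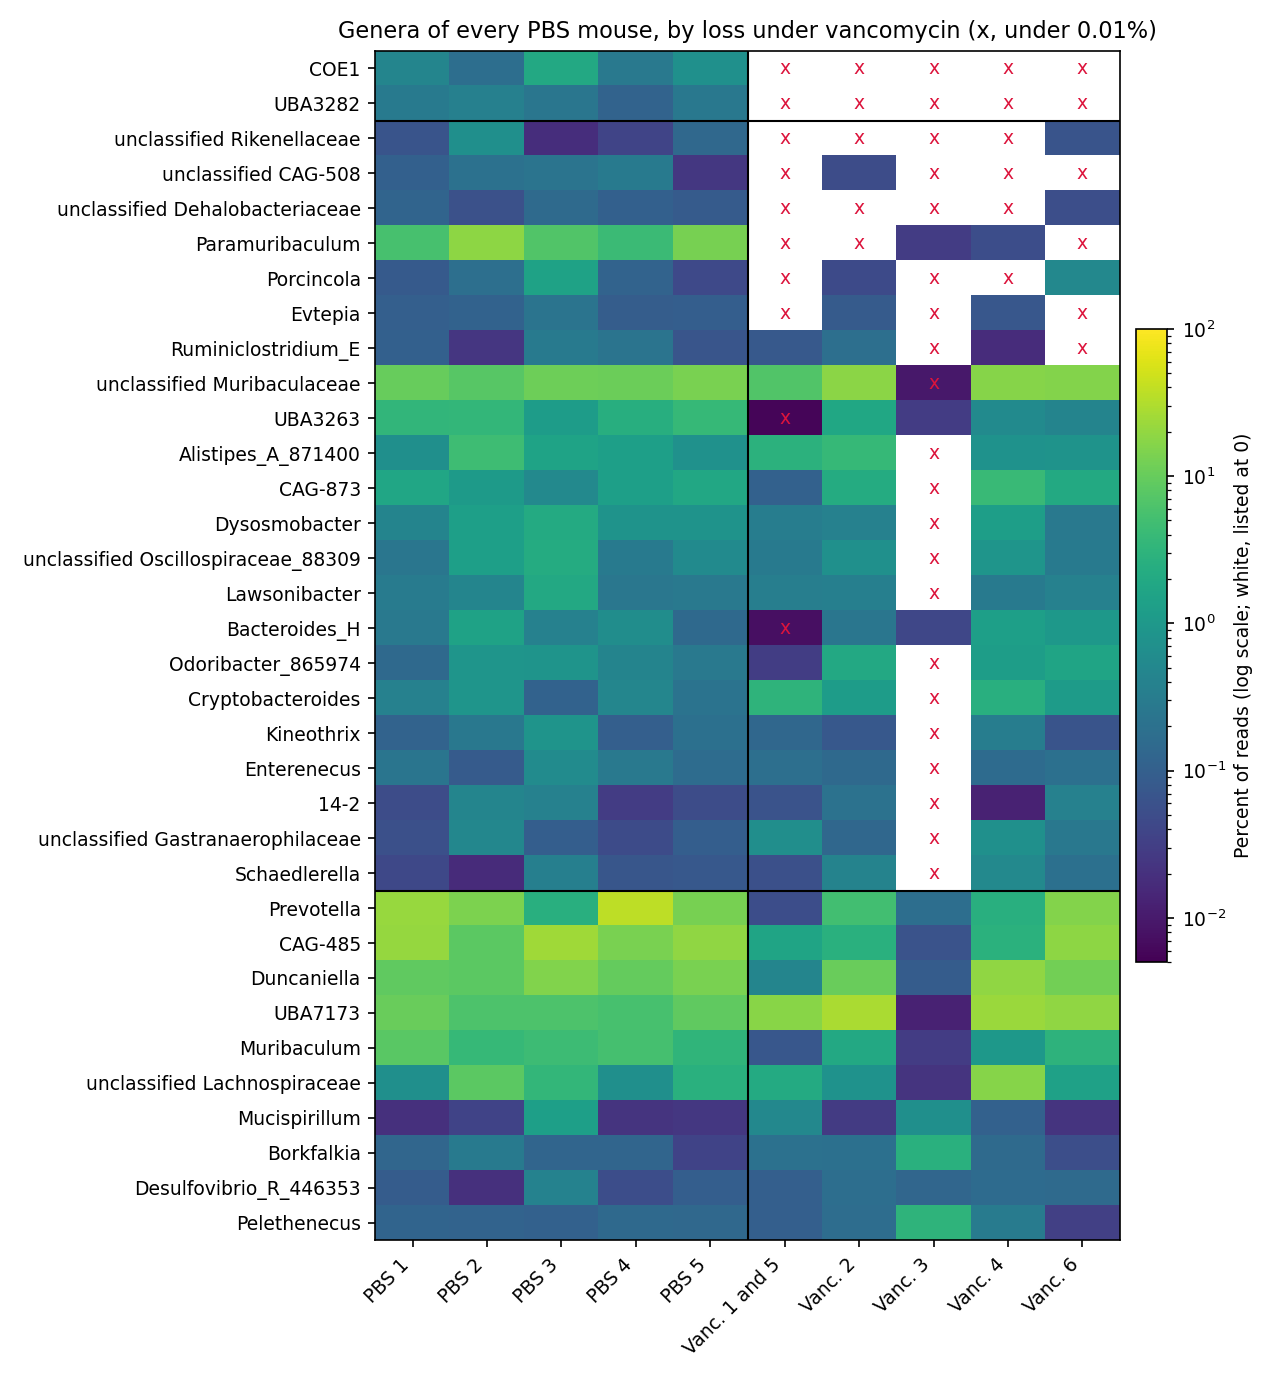
Percent of reads (colour, log scale) of the 34 genera with a PBS mean of at least 0.1% and at least 0.01% in every PBS sample (vertical axis) in each day 4 sample (horizontal axis); white cells are listed at 0 and crosses mark vancomycin samples under 0.01%. The 2 genera at the top are crossed in all 5 vancomycin samples, the 10 at the bottom in none, and 13 of the 22 between them are crossed in vancomycin replicate 3 alone.

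Of the genera lost in 4 samples, unclassified Rikenellaceae, Gram-negative Bacteroidales, remained only in replicate 6 at 0.0654%. Unclassified CAG-508, of Firmicutes_A, remained only in replicate 2 at 0.0506%, and unclassified Dehalobacteriaceae remained only in replicate 6 at 0.0545%. In replicate 6 a value of 0.0218% is the least that could be listed, so these rest on few reads. Without replicate 6, 4 genera would be lost in all. Paramuribaculum, Porcincola and Evtepia were lost in 3 samples. Porcincola, of Lachnospiraceae, was at 0.0455% in replicate 2 and at 0.501% in replicate 6, and at 0 in the others. Genera lost in replicate 3 alone included Alistipes_A_871400, a genus of Rikenellaceae, which held 2.94%, 3.84%, 0.791% and 0.795% in the other vancomycin samples and 0.696% to 4.65% in PBS.

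The 10 genera lost in none were Prevotella, CAG-485, Duncaniella, UBA7173, Muribaculum, unclassified Lachnospiraceae, Mucispirillum, Borkfalkia, Desulfovibrio_R_446353 and Pelethenecus. The first 5 are Bacteroidales. Being kept did not mean an even level. Mucispirillum, a dweller of gut mucus, ran from 0.0218% to 0.696% after vancomycin and from 0.0198% to 1.33% in PBS. Desulfovibrio_R_446353, a sulphate reducer, held 0.0997%, 0.182%, 0.130%, 0.161% and 0.153%, within its PBS range of 0.0194% to 0.399%.

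Across all genera found in at least 20% of day 4 samples, limma passed 24 of 95 (25.3%), with 21 lower (22.1%) and 3 higher (3.16%) after vancomycin. At an unadjusted p under 0.05 there were 34. The log2 changes are of percent + 0.01 and understate those of rare genera, and their median over the 95 genera was -1.01. With each sample centred on its own mean log value (centred log ratio) the median was -0.04 and 11 genera passed, 6 higher and 5 lower, of which 8 were among the 24, with no change of direction. The count was 4 with each mouse's own day 0 library as the baseline, where 4 of 6 day 0 libraries of the vancomycin mice held fewer than 1000 reads, 5 of 56 with libraries thinned to 1000 reads, and 11 of 44 for genera found in at least 50% of samples. Of the 24, 12 passed whichever sample was left out, all of them lower.

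Of the 21 lower genera, 16 were Firmicutes_A (of 55 tested, 29.1%), 4 were Bacteroidota (of 17, 23.5%) and 1 was the only genus tested of Firmicutes_B_370539, against 22.1% lower over all genera. Most were of low abundance in PBS, where 10 held under 0.1% of reads on average and 3 held 1% or more. In 13 the genus was listed at 0 in all vancomycin samples, as were 24 of all 95 genera tested. In 10 the groups did not overlap, against 12 of all 95 genera tested (12.6%), and 1 of the 3 higher genera did not overlap, against 2 of 95 (2.11%).

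**Figure D3:**
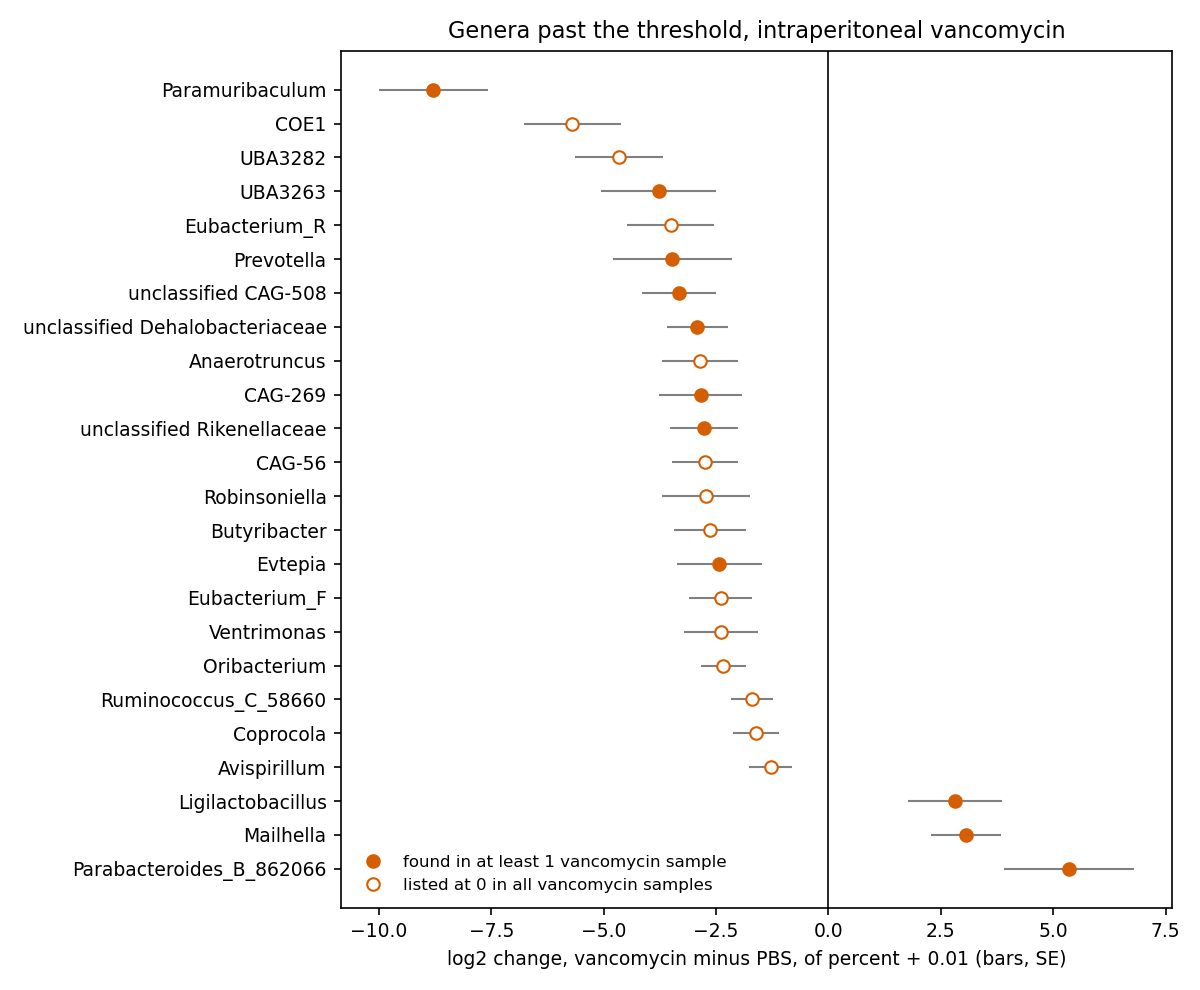
Log2 change with its standard error (horizontal axis, intraperitoneal vancomycin minus PBS, of percent + 0.01) of the 24 genera past the threshold (vertical axis, ordered by change), 5 samples in each group. Paramuribaculum lies farthest to the left at -8.79 and Parabacteroides_B_862066 farthest to the right at 5.36; open symbols mark the 13 genera listed at 0 in all vancomycin samples.

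The largest fall was that of Paramuribaculum, a genus of Muribaculaceae and so Gram-negative. It held 5.69%, 18.9%, 6.89%, 4.19% and 12.9% in PBS replicates 1 to 5, and after vancomycin 0.0286% in replicate 3, 0.0522% in replicate 4 and 0 in the others. These were 9 and 12 reads. All vancomycin samples lay far below all PBS samples, and the means were 0.0162% ± 0.0236 and 9.72% ± 6.12 (SD, n = 5 each), 602-fold lower. The log2 change was -8.79 (SE 1.21, limma adjusted p = 1.65e-08). It passed whichever sample was left out, with centred log ratios, after thinning to 1000 reads and with the own day 0 library as the baseline. In replicates 1 and 4 it had been at 4.01% and 4.29% at day 0.

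Its named species-level taxa moved together. Paramuribaculum intestinale was at 4.18%, 4.87%, 2.52%, 2.42% and 4.49% in PBS and, after vancomycin, at 0.0522% in replicate 4 and 0 in the others (log2 change -7.95, SE 1.01, adjusted p = 1.26e-09). Paramuribaculum sp000431155 was at 0.543%, 11.1%, 3.51%, 0.80% and 6.87% in PBS and, after vancomycin, at 0.0286% in replicate 3 and 0 in the others (log2 change -7.64, SE 1.25, adjusted p = 1.19e-06). Paramuribaculum sp001689565 was at 0 in all vancomycin samples and at 0.852% to 2.91% in PBS (log2 change -7.02, SE 0.967, adjusted p = 9.82e-09). At this level 33 of 133 taxa passed (24.8%), 29 lower (21.8%) and 4 higher (3.01%), and 3 of the 44 taxa that met the same PBS limits were lost in all vancomycin samples.

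Close relatives within a genus differed. CAG-485 as a genus did not pass (log2 change -3.20, SE 1.5, adjusted p = 0.10), and it holds a pair of abundant taxa. CAG-485 sp002493045 was at 19.9%, 4.06%, 21.7%, 11.9% and 14.2% in PBS and at 0, 0.119%, 0.0381%, 0.0565% and 0.0436% after vancomycin in replicates 1 and 5, 2, 3, 4 and 6. Every vancomycin sample lay below every PBS sample (log2 change -8.06, SE 1.40, adjusted p = 4.47e-06), and it passed whichever sample was left out. CAG-485 sp002362485 was at 1.32%, 2.32%, 0.0254%, 2.18% and 18.1% after vancomycin in the same order, against 0.828%, 3.72%, 2.39%, 1.36% and 4.45% in PBS. Replicates 1 and 5, 2 and 4 lay within the PBS range, replicate 3 below and replicate 6 above it (log2 change -0.68, adjusted p = 0.683). The difference between these taxa was not itself tested.

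In Muribaculum the taxa differed less, and the difference between them was not tested. Muribaculum gordoncarteri was at 0, 0.169%, 0, 0.461% and 0.316% after vancomycin and at 2.44%, 1.0%, 1.49%, 1.92% and 1.52% in PBS (log2 change -4.39, SE 1.43, adjusted p = 0.0178), and it did not pass without vancomycin replicates 1 and 5 (-3.65, adjusted p = 0.0790), without replicate 3 (-3.65, adjusted p = 0.0726) or with centred log ratios (-3.35, adjusted p = 0.0502). Muribaculum intestinale was at 0.0730%, 1.70%, 0.0286%, 0.526% and 2.71% against 4.43%, 2.17%, 2.70%, 2.77% and 1.71%, and its groups overlapped (log2 change -2.79, SE 1.25, adjusted p = 0.0837). Unclassified Muribaculum was at 0, 0.0936%, 0, 0.0130% and 0 against 1.20%, 0.618%, 0.175%, 0.755% and 0.0698%. It fell (log2 change -4.36, SE 1.29, adjusted p = 0.00825) and passed in 10 of 10 fits that left out 1 sample, though its groups overlapped. The genus lay below all PBS samples in all 5 vancomycin samples without passing (log2 change -3.39, SE 1.38, adjusted p = 0.0570). UBA3263, another genus of the family, held 0.00578%, 1.82%, 0.0286%, 0.561% and 0.436% against 3.45%, 3.46%, 1.18%, 2.53% and 3.75%, with replicate 2 within the PBS range. It fell (log2 change -3.78, SE 1.28, adjusted p = 0.0222) but did not pass without vancomycin replicates 1 and 5 (adjusted p = 0.132) or replicate 3 (adjusted p = 0.0836).

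UBA7173 stood on the other side. It held 17.4%, 28.0%, 0.0127%, 22.2% and 19.5% after vancomycin and 10.5%, 6.24%, 6.31%, 5.61% and 8.84% in PBS. In 4 of 5 vancomycin samples it was above all PBS samples and in replicate 3 it was below all of them, so that the log2 change over the group was -0.42 (SE 1.41, adjusted p = 0.809), with 1.56 (adjusted p = 0.435) without replicate 3. Most of it was UBA7173 sp002491305, at 17.3%, 25.7%, 0.0127%, 21.3% and 15.5% against 8.69%, 5.40%, 5.78%, 4.70% and 7.46%. In replicates 1 and 4 the genus had been at 3.51% and 6.31% at day 0. It was also higher at day 4 than at day 0 in 4 of 5 PBS mice, which held 3.45% to 6.35% at day 0, and UBA7173 sp002491305 was in 5 of 5.

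The makeup of the family was set apart from its total. Paramuribaculum and CAG-485 sp002493045 together made up 36.9%, 39.9%, 40.8%, 30.4% and 35.1% of the Muribaculaceae reads of PBS replicates 1 to 5. After vancomycin they made up 0, 0.183%, 0.163% and 0.0611% in replicates 1 and 5, 2, 4 and 6, and 25.6% in replicate 3, whose family reads numbered 82. UBA7173 sp002491305 made up 65.1%, 39.5%, 4.88%, 32.0% and 21.8% of the family after vancomycin and 9.74% ± 1.65 (SD, n = 5) in PBS. Replicates 2, 4 and 6, with family totals inside the PBS range, each had a share of this taxon above every PBS sample. These shares were chosen after the values were seen and were not tested.

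**Figure D4:**
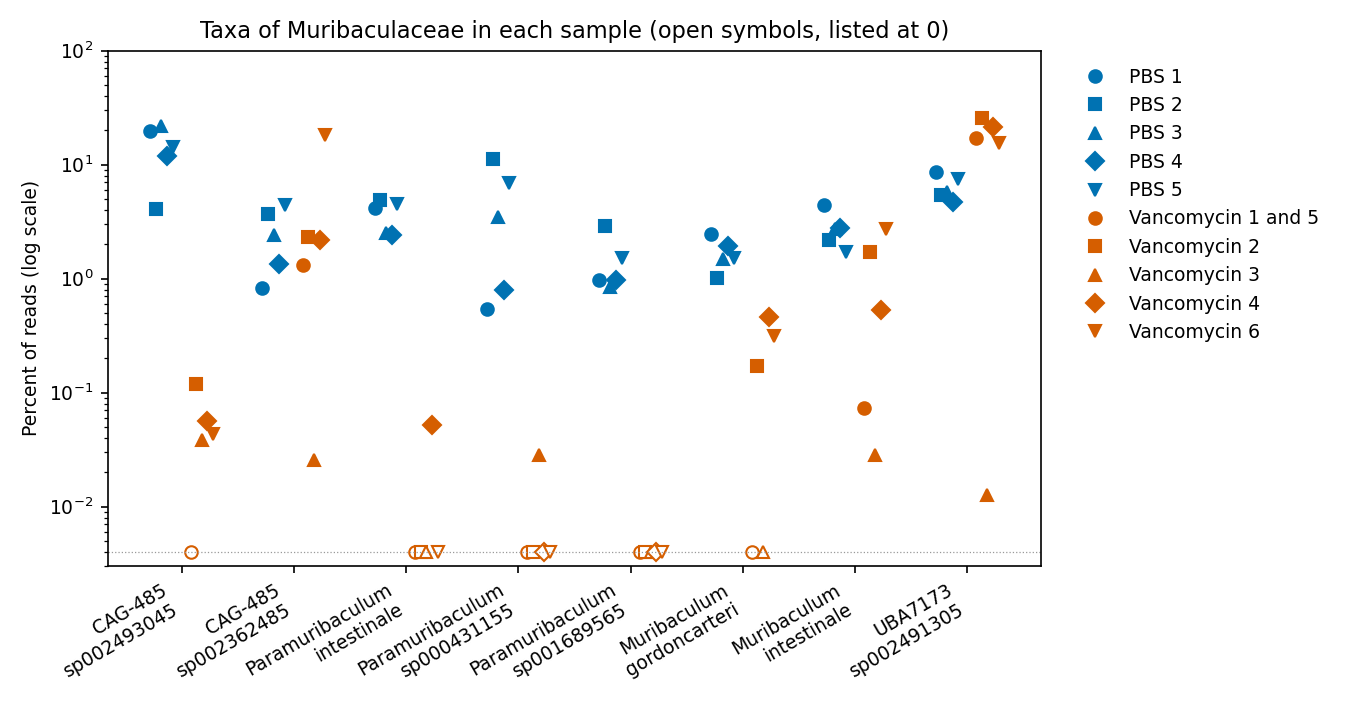
Percent of reads (vertical axis, log scale) of 8 species-level taxa of Muribaculaceae (horizontal axis) in each day 4 sample, PBS in blue and intraperitoneal vancomycin in orange, with a symbol per replicate and open symbols for taxa listed at 0. CAG-485 sp002493045 and the 3 Paramuribaculum taxa lie below 0.12% in every vancomycin sample, while CAG-485 sp002362485 overlaps PBS and UBA7173 sp002491305 lies above PBS in all but replicate 3.

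Among the 8 genera of Muribaculaceae tested, Paramuribaculum and UBA3263 fell and none rose, a share of 25% against 22.1% of all genera tested, and the median log2 change was -2.64, against -1.01 over all genera tested. Other genera of the family varied with the mouse. Duncaniella held 0.448%, 10.4%, 0.0890%, 19.7% and 12.2% after vancomycin and 8.31% to 15.3% in PBS, low only in replicates 1 and 5 and in replicate 3 (log2 change -2.07, adjusted p = 0.325). Unclassified Muribaculaceae held 6.91%, 18.1%, 0.00954%, 16.5% and 15.8% against 7.63% to 13.7%. CAG-873 was at 0.110%, 2.18%, 0, 4.08% and 2.06%.

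Of 3 Bacteroidaceae genera tested, Prevotella fell (33.3%, against 22.1% of all genera tested) and none rose. It held 21.9%, 14.0%, 2.63%, 37.1% and 13.3% in PBS and 0.0511%, 5.08%, 0.178%, 2.61% and 15.8% after vancomycin. The groups overlapped, with replicate 6 at the level of PBS and replicates 1 and 5 and replicate 3 lowest (4.73% ± 6.50 against 17.8% ± 12.8, SD, n = 5 each). The log2 change was -3.47 (SE 1.32, adjusted p = 0.0419), which lost its call in 6 of 10 fits that left out 1 sample, with adjusted p from 0.0128 without vancomycin replicate 6 to 0.208 without replicates 1 and 5. Bacteroides_H was not lost as a genus except in replicates 1 and 5. Bacteroides_H rodentium within it was at 0 in all vancomycin samples and at 0.201%, 0.323%, 0.0906%, 0.238% and 0.0324% in PBS (log2 change -3.90, SE 1.19, adjusted p = 0.0114). It was also at 0 in the day 0 libraries of vancomycin replicates 1 and 4, so that it was not shown to have been present before treatment. Unclassified Bacteroides_H held 0.00744%, 0.248%, 0, 1.33% and 0.980% and did not pass (log2 change -0.82, adjusted p = 0.690).

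Among Firmicutes, 8 of 27 Lachnospiraceae genera tested were lower (29.6%, against 22.1% of all genera tested) and none higher, with a median log2 change of -1.51. Besides COE1 and UBA3282 these were CAG-56, Oribacterium, Eubacterium_F, Butyribacter, Ventrimonas and Robinsoniella, and all 8 were listed at 0 in every vancomycin sample, as were 13 of the 27 tested. CAG-56 was at 0.0471%, 0.101%, 0.0604%, 0.0546% and 0.0374% in PBS, so it was found in every PBS sample and in no vancomycin sample (at least 4.16-fold lower, log2 change -2.75, adjusted p = 0.00349). Oribacterium was at 0.0149% to 0.109% in PBS (at least 3.36-fold lower, log2 change -2.33, adjusted p = 0.000318). At such levels the distance to the limit of 3 reads is short. CAG-56, Oribacterium, Robinsoniella and, of other orders or families, Evtepia, Ruminococcus_C_58660 and Avispirillum were also at 0 in all 6 day 0 libraries of the vancomycin mice, so that these 6 of the 21 lower genera were not shown to have been present before treatment. Robinsoniella did not pass in 5 of 10 fits that left out 1 sample (adjusted p up to 0.0804, without PBS replicate 1), and Ventrimonas did not pass without PBS replicate 3 (adjusted p = 0.0830).

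The sum of Lachnospiraceae was not lower in every mouse. It was 8.66%, 7.08%, 0.0286%, 18.0% and 5.48% of reads after vancomycin and 2.68%, 12.4%, 12.5%, 1.78% and 4.88% in PBS, so that replicate 4 lay above, replicate 3 below and the others within the PBS range. Most reads in replicate 4 were unclassified Lachnospiraceae at 16.7%, against 2.14%, 0.774%, 0.0223% and 1.46% in the other vancomycin samples and 0.684% to 8.14% in PBS. Acetatifactor, a genus of the family, was at 3.50% in replicate 2, 0.222% in replicate 4 and 2.40% in replicate 6, and at 0 in the others, with a highest PBS value of 1.12%.

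Of 15 genera of Oscillospirales tested, 5 were lower (33.3%, against 22.1% of all genera tested) and none higher (median log2 change -1.43). These were Eubacterium_R, Anaerotruncus, Evtepia, Ruminococcus_C_58660 and Avispirillum. Eubacterium_R was at 0 in all vancomycin samples and at 0.193%, 0.286%, 0, 0.247% and 0.115% in PBS (at least 11.6-fold lower, log2 change -3.51, SE 0.958, adjusted p = 0.00382), and PBS replicate 3 lacked it too. Anaerotruncus was at 0 in all vancomycin samples and at 0.93% in PBS replicate 3, with 0.00643% to 0.0797% in the other PBS samples. It did not pass without PBS replicate 3 (adjusted p = 0.0830), and Ruminococcus_C_58660 did not without PBS replicate 2 (adjusted p = 0.0556). Evtepia was at 0.0860% in replicate 2 and 0.0739% in replicate 4, just under its lowest PBS value of 0.0932%, and at 0 in the others, and it passed in 2 of 10 fits that left out 1 sample. Avispirillum passed in 4 of 10.

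The order as a whole summed to 1.25%, 1.94%, 0, 2.75% and 1.18% after vancomycin and to 1.85%, 4.26%, 8.72%, 2.40% and 2.28% in PBS. Replicate 3 had no read of it, and replicates 2 and 4 overlapped with PBS. The 6 genera of the order that met the PBS limits of the loss description all varied between vancomycin mice; Anaerotruncus, under 0.01% in a part of the PBS samples, was outside those limits. Dysosmobacter, the largest of the named ones, was at 0.338%, 0.395%, 0, 1.27% and 0.272% against 0.436% to 2.09%.

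The other lower Firmicutes were CAG-269 and unclassified CAG-508 of the family CAG-508, Coprocola of Anaerotignaceae, and unclassified Dehalobacteriaceae. Unclassified Dehalobacteriaceae was at 0.124%, 0.0582%, 0.151%, 0.103% and 0.0847% in PBS, and all vancomycin samples lay below (9.56-fold lower in the mean, log2 change -2.91, SE 0.684, adjusted p = 0.00101). The 0.0545% of replicate 6 was 5 reads, and with the own day 0 library as baseline the log2 change had the other sign (0.24). The day 0 libraries of vancomycin replicates 1, 2, 3, 5 and 6 held 0 reads of it, out of 6206, 357, 2, 230 and 270. In replicate 4 it went from 0.664% (100 reads) at day 0 to 0. Unclassified CAG-508 was at 0.104%, 0.198%, 0.230%, 0.299% and 0.0249% in PBS, where replicate 2 of vancomycin at 0.0506% overlapped with the last (log2 change -3.33, SE 0.831, adjusted p = 0.00211). CAG-269 was at 0.0152% in replicate 2 and at 0 in the other vancomycin samples, below all PBS samples (0.0274% to 0.161%; log2 change -2.84, adjusted p = 0.0148). Coprocola did not pass without PBS replicate 2 (adjusted p = 0.0698), and its change too had the other sign with the own day 0 library as baseline (0.60). With day 0 libraries of at least 1000 reads alone, neither Coprocola nor unclassified Dehalobacteriaceae had the other sign.

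The remaining lists held few tested genera, so a list with none past the threshold says little beside the 25.3% of all genera tested that passed. Of 3 genera of bacteria without a cell wall, the target of vancomycin, none passed, and Pelethenecus, kept in all samples, was at 0.0997%, 0.172%, 3.18%, 0.309% and 0.0327% against 0.109% to 0.148% in PBS, above all PBS samples in replicates 2, 3 and 4. Of 4 genera of Christensenellales none passed (median log2 change 0.04). Borkfalkia was at 0.199%, 0.192%, 2.66%, 0.152% and 0.0545% against 0.0374% to 0.291%, above all PBS samples only in replicate 3. Escherichia_710834, the 1 genus tested of Enterobacterales, was at 0.104% in replicates 1 and 5, 0.0699% in replicate 3 and 0 in the others, and at up to 0.0743% in PBS. Actinobacteriota, Gram-positive, were at 0 in all vancomycin samples and at 0.0372%, 0.0991%, 0, 0.00643% and 0.0573% in PBS, with neither of 2 tested genera past the threshold. Bacteria known from reagents, skin and food reached 0.0318% after vancomycin and 0.0418% in PBS. No genus of Erysipelotrichales was tested, the order reaching 0.257% in replicates 1 and 5, and Campylobacterota were at 0 in all samples of both groups.

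In the fit of all day 4 samples 3 genera rose, and none of them passed in a fit of the intraperitoneal vancomycin and PBS samples alone (adjusted p = 0.0678 for Parabacteroides_B_862066, 0.128 for Mailhella and 0.0678 for Ligilactobacillus), which passed 16 genera, 1 higher and 15 lower. Parabacteroides_B_862066, a Gram-negative genus of Tannerellaceae whose reads in replicates 1 and 5 and 3 were nearly all Parabacteroides_B_862066 distasonis, was at 11.1%, 0.304%, 83.4%, 0.165% and 0.0980% after vancomycin and at 0.0520%, 0.0646%, 0, 0.0932% and 0 in PBS. All vancomycin samples lay above all PBS samples, but 3 of them by less than 0.3 percentage points (log2 change 5.36, SE 1.45, adjusted p = 0.00382). The 0.0980% of replicate 6 was 9 reads, against 0.0932% in PBS replicate 4, so the lack of overlap rests on few reads. Without replicate 3 the log2 change was 3.88 and did not pass (adjusted p = 0.0501), while that of Parabacteroides_B_862066 distasonis was 4.15 and did (adjusted p = 0.0199). This species was listed at 0 in the day 0 libraries of replicates 1 and 4.

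Mailhella, a genus of the sulphate-reducing family Desulfovibrionaceae, was at 0.0453%, 0.0455%, 3.08%, 0.126% and 0 after vancomycin and at 0, 0.00431%, 0.0121%, 0 and 0 in PBS. Replicates 1 and 5, 2, 3 and 4 lay above PBS and replicate 6, the shallowest, did not (log2 change 3.06, SE 0.781, adjusted p = 0.00241), and without replicate 3 it did not pass (1.84, adjusted p = 0.0600). The other 2 genera of the family tested did not pass. Ligilactobacillus, lactic acid bacteria related to lactobacilli that carry a cell wall precursor vancomycin binds poorly, was at 0.432%, 0.144%, 0.273%, 0.0522% and 0.174% after vancomycin and at 0, 0.224%, 0.0181%, 0 and 0.00997% in PBS. The groups overlapped only through PBS replicate 2 (log2 change 2.81, SE 1.05, adjusted p = 0.0387), and it passed in 4 of 10 fits that left out 1 sample, with adjusted p up to 0.116.

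Other genera were above day 4 PBS in some or all mice without passing. Akkermansia was at 41.4% in replicates 1 and 5 and 11.4% in replicate 2, and at 0.00954%, 0 and 0 in replicates 3, 4 and 6. In PBS it was at 0.875%, 0.00862%, 0.0242%, 0.00964% and 0.0199%, so that vancomycin samples lay on both sides of PBS (log2 change 2.29, SE 1.85, adjusted p = 0.385). At day 0 it was at 0 in replicate 1 and at 1.91% in replicate 4, which had 41.1% and 0 at day 4. Parasutterella, a Gram-negative genus of Burkholderiaceae_A_595427, was at 1.51%, 0.182%, 5.52%, 0.782% and 0.272% against 0.0648% to 0.121%, above day 4 PBS in 5 of 5 samples. The PBS mice had held more at day 0, at 0.339%, 0.197%, 0.264%, 0.274% and 0.136%. Vancomycin replicates 2 and 6 lay within that day 0 range. Parasutterella did not pass (log2 change 2.98, SE 1.22, adjusted p = 0.0570). It did with centred log ratios (adjusted p = 0.0121), in the 2 groups alone (0.0499), with a pseudocount of 0.1% (0.0253) and after thinning (0.0177). It also passed with the own day 0 library as baseline (0.0355). There it had 0 reads in vancomycin replicates 2, 3, 5 and 6, whose day 0 libraries held 357, 2, 230 and 270 reads. In replicates 1 and 4 it had been at 0.209% and 0.153%. With day 0 libraries of at least 1000 reads alone, 0 genera passed as higher. The unclassified taxon of Parasutterella passed at the lowest rank (log2 change 4.63, SE 1.21, adjusted p = 0.00330). Cryptobacteroides was at 3.14%, 1.20%, 0, 2.58% and 1.14% against 0.115% to 0.885%, above PBS in 4 samples and lost in replicate 3. CAG-510 reached 5.49% in replicates 1 and 5 and 1.41% in replicate 2, and was at 0 in the others.

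Of 39 families, 10 passed (25.6%), 2 higher (5.13%) and 8 lower (20.5%). Tannerellaceae rose with Parabacteroides_B_862066 (log2 change 5.36, adjusted p = 0.00837), and Anaerovoracaceae rose although the groups overlapped (0.236%, 0.0228%, 0, 0.0304% and 0.0545% against up to 0.0362%, log2 change 1.23, adjusted p = 0.0348). Bacteroidaceae fell (0.0585%, 5.50%, 0.219%, 3.99% and 16.8% against 3.02% to 37.8%, log2 change -3.30, adjusted p = 0.0348), as did Ruminococcaceae (log2 change -3.17, adjusted p = 0.0348). Dehalobacteriaceae, Acutalibacteraceae, CAG-508, Anaerotignaceae, CAG-272 and Eggerthellaceae fell too. These calls are less steady than those of genera. A fit with the intraperitoneal vancomycin and PBS samples alone passed 0 families, and leaving out PBS replicate 1, 2 or 5 passed 3, 2 or 6 and leaving out vancomycin replicates 1 and 5, 3 or 6 passed 4, 3 or 4.

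The study also gave vancomycin by mouth (6 samples, 5 PBS) and into a vein (6 samples, 6 PBS), each with PBS of its own route. By mouth 18 of 33 genera that met the PBS limits of their route were lost in all vancomycin samples (54.5%), 14 varied and 1 was kept, against 2 of 34 (5.88%), 22 and 10 in the peritoneum and 2 of 26 (7.69%), 17 and 7 in a vein. UBA3282 was lost in 6 of 6 oral samples and in 4 of 6 intravenous ones. COE1 was lost in 5 of 6 oral samples, with 0.0726% in the other, and in 4 of 6 intravenous ones. No genus was lost in all samples of all 3 routes. Read numbers of the oral and intravenous libraries are not given here. In a shallow library a genus listed at 0 may still lie above the loss limit. The loss counts of the routes may therefore differ through read depth as well as through loss, and their difference was not tested. R2 was 0.837 by mouth and 0.482 in a vein, against 0.315.

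**Figure D5:**
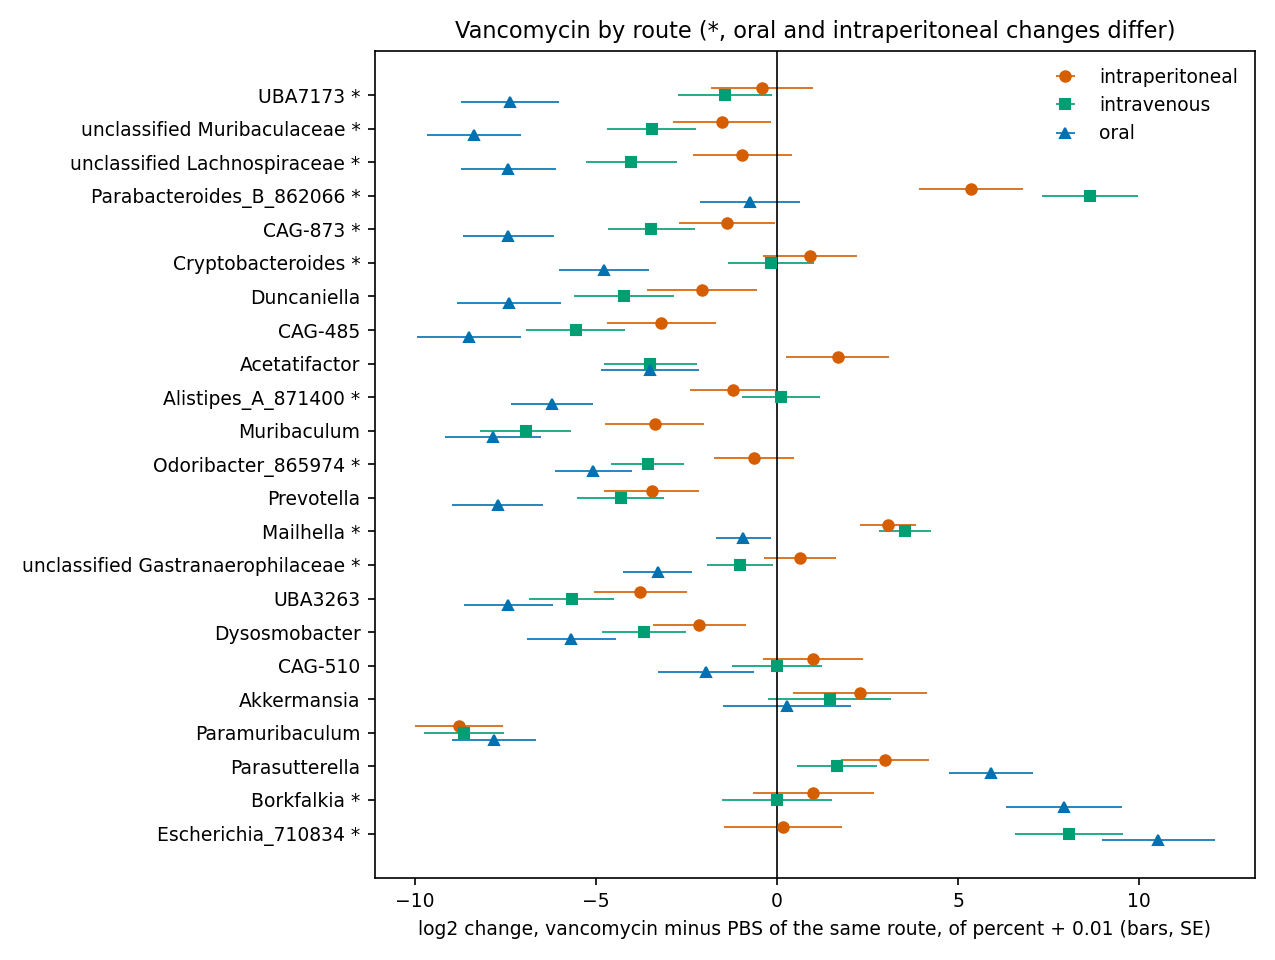
Log2 change with its standard error (horizontal axis, vancomycin minus PBS of the same route, of percent + 0.01) of abundant genera and of those whose change differed between intraperitoneal and oral vancomycin (starred), by route. Paramuribaculum lies at -8.79, -8.65 and -7.82 by the intraperitoneal, intravenous and oral route, while UBA7173 lies at -0.42 in the peritoneum and Escherichia_710834 differs by -10.38 between intraperitoneal and oral vancomycin.

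The change differed between intraperitoneal and oral vancomycin in 12 of 95 genera (12.6%) by an interaction contrast, 10 higher and 2 lower in the peritoneum, with 32 at an unadjusted p under 0.05. Escherichia_710834, a Gram-negative facultative anaerobe, differed most in size. It held 49.0% ± 15.2 (SD, n = 6) after oral vancomycin and 0.0349% ± 0.0493 (SD, n = 5) after intraperitoneal vancomycin (interaction -10.38, SE 2.25, adjusted p = 0.00137). Borkfalkia held 28.9% ± 14.5 (SD, n = 6) by mouth (interaction -6.92, SE 2.31, adjusted p = 0.0346). UBA7173 held 0.0530% ± 0.0774 (SD, n = 6) after oral vancomycin and 6.02% ± 1.58 (SD, n = 5) after oral PBS (interaction 6.97, SE 1.96, adjusted p = 0.0144). Unclassified Muribaculaceae and unclassified Lachnospiraceae differed by 6.84 (SE 1.87, adjusted p = 0.0143) and 6.45 (SE 1.89, adjusted p = 0.0190), also lower by mouth. The count was 6 without vancomycin replicate 2, 23 without replicate 3, 5 without replicate 4 and 6 without replicate 6, each intraperitoneal.

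None of the 21 genera that fell in the peritoneum passed the interaction contrast between these routes. For many of them it could hardly have passed. In 13 the genus was at 0 in all intraperitoneal vancomycin samples, and some of these, such as UBA3282 and CAG-56, were at 0 after oral vancomycin too. There the contrast reflects little but the PBS levels, and does not show equal falls. Of the 3 that rose, Mailhella (3.99, adjusted p = 0.0143) and Parabacteroides_B_862066 (6.11, adjusted p = 0.0332) passed it. Of the 21 that fell, 19 passed in the same direction by mouth and 14 in a vein, and of the 3 that rose 1 and 2 did. Genera that did not pass in the peritoneum, such as Duncaniella and Muribaculum, also fell past the threshold by mouth. The share of all tested genera that passed by those routes is not given here. The counts therefore do not show more overlap between routes than that share would give. Paramuribaculum fell by 7.82 on the log2 scale by mouth (adjusted p = 8.43e-08) and by 8.65 in a vein (adjusted p = 1.19e-09), and the interactions did not pass (adjusted p = 0.811 and 0.975). CAG-485 sp002493045 fell by 8.23 by mouth and fell by 7.58 in a vein. CAG-485 sp002362485 fell by 7.51 by mouth, which differed from its change of -0.68 in the peritoneum (interaction 6.83, adjusted p = 0.0141), and in a vein its change was -3.19.

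Between intraperitoneal and intravenous vancomycin 0 of 95 genera differed past the threshold (0%) in limma's interaction contrast, with 11 at an unadjusted p under 0.05. The count was 4 without PBS replicate 3, 2 without PBS replicate 5, and 1 without vancomycin replicates 1 and 5 or replicate 3. The lowest adjusted p was 0.0523, for Escherichia_710834, at 16.3% ± 12.9 (SD, n = 6) after intravenous vancomycin (interaction -7.92, SE 2.20). Some of the intravenous samples came from another sequencing run, whose part in these contrasts was not tested. Parabacteroides_B_862066 held 31.6% ± 27.6 (SD, n = 6) in a vein, from 0.521% to 69.5%.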

How the data were processed

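The measurement was the authors' deposited table of 488 taxa by fecal library, whose signal sums to 100000 in each library, per the file headers. Antibiotic, route, day and replicate number came from the deposited sample sheets. Amplification used 30 to 35 PCR cycles and an Illumina MiSeq instrument, per the protocols in the labels; how reads were filtered, clustered and named is not stated in the sources used here. All libraries of the intraperitoneal vancomycin and PBS groups came from 1 of 2 sequencing runs.

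Empty cells were read as 0 (11.6% of all cells). Values were turned into percent of reads and summed to 316 genera and 107 families. The values of a library were whole multiples of 1 step, which gave its reads, so far as no factor is shared by all counts; no count model was fitted, since the table does not hold counts. A chi-square test of these reads was run on each of 197 pairs of day 4 libraries of a group. In it 2 pairs had p of at least 0.05 and were averaged, vancomycin replicates 1 and 5 and a pair of another group. The 91 day 4 libraries thus gave 89 samples.

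Genera and families were tested with limma 3.58.1 (R 4.3.3) on log2(percent + 0.01), fitted over the 89 day 4 samples together, each antibiotic and route having its own mean, with a variance trend, over features found in at least 20% of them, with Benjamini-Hochberg adjustment over all features tested and a threshold of 0.05. All adjusted p-values not called exact are from this fit, and the spread behind them is shared by all day 4 groups. Routes were compared by interaction contrasts of the same fit. The Shannon index (natural log), taxa found and Bray-Curtis distances (all at the lowest rank, Python 3.11.15, numpy 2.4.6, scipy 1.17.1) were tested by exact permutation, adjusted over 15 comparisons. A fold against a group at 0 is a lower bound against 3 reads per library, averaged over the vancomycin samples. The fit was also run on simulated data with normal spread, alike in all groups, and no floor. The real values differ in these respects, so that run does not vouch for the calls.

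Named genera were those past the threshold, those of at least 1% in either group, those lost in all vancomycin samples, and the 5 largest differences past the threshold between routes; species-level taxa were those of at least 1% in any sample within them, and others (Bacteroides_H rodentium, genera used to describe losses, families) were chosen after their values were seen. Members, lists and rules were chosen with earlier results of these data known. Replicate numbers were checked for pairing: deviations of samples of like number correlated at 0.315, -0.106, -0.0224 and 0.171, so the numbers were not taken to pair the samples. Alternatives were the pseudocount, the filter, centred log ratios, thinning to 1000 reads, the day 0 library as baseline, the rank, the loss limits, other sets of samples and leaving out each sample.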

Additional observations from a re-analysis of the deposited data

Results flagged for a closer look

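In 71 groups of values of 40 named genera and of the sample measures, 12 samples lay far from the rest of their group by Dixon's test. Chance alone gives about 1 in 20 groups only for independent, normally spread values, so the 12 cannot be set against that rate. A genus found in a single vancomycin sample and at 0 in the others is flagged whatever its level. This was so for CAG-269, unclassified CAG-508, unclassified Dehalobacteriaceae and unclassified Rikenellaceae. Of the 12, 4 were in vancomycin replicate 3 and 2 in PBS replicate 3.

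In vancomycin replicate 3, UBA7173 was at 0.0127% (others 17.4% to 28.0%), unclassified Muribaculaceae at 0.00954% (others 6.91% to 18.1%), Alistipes_A_871400 at 0 (others 0.791% to 3.84%) and Cryptobacteroides at 0 (others 1.14% to 3.14%). In vancomycin replicate 2, CAG-269 was at 0.0152% and unclassified CAG-508 at 0.0506%, with the others at 0. In vancomycin replicate 6, unclassified Dehalobacteriaceae was at 0.0545% and unclassified Rikenellaceae at 0.0654%, with the others at 0. In PBS replicate 3, Eubacterium_R was at 0 (others 0.115% to 0.286%) and Evtepia at 0.230% (others 0.0932% to 0.114%). PBS replicate 1 held 0.875% Akkermansia (others 0.00862% to 0.0242%), and PBS replicate 2 held 146 taxa (others 107 to 111).

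The change under vancomycin differed between the intraperitoneal and the oral route by the interaction contrast in Escherichia_710834 (-10.38), UBA7173 (6.97), Borkfalkia (-6.92), unclassified Muribaculaceae (6.84) and unclassified Lachnospiraceae (6.45), all on the log2 scale.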

How the results depend on the processing

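Against 24 genera in the report, 11 passed with centred log ratios (6 higher, 5 lower), 4 with the own day 0 library as baseline, 2 where that library held at least 1000 reads (chosen after seeing the data), 11 of 44 found in at least 50% of samples, and 5 with libraries thinned to 1000 reads. Leaving out 1 sample gave 17 to 29. Against 10 families, 4 passed with no filter, 0 in a fit of the intraperitoneal vancomycin and PBS samples alone, 3 with the own day 0 library, 6 found in at least 50% of samples, 6 with a pseudocount of 0.001%, 2 thinned, and 2 to 11 with 1 sample left out. Against 12 genera between the intraperitoneal and oral route, the counts were 7 with no filter, 25 with the own day 0 library, 3 where it held at least 1000 reads, 21 with a pseudocount of 0.001%, and 5 to 23 with 1 sample left out. Against 0 genera between the intraperitoneal and intravenous route, they were 2 with centred log ratios, 2 with replicates 1 and 5 kept separate, 1 with no filter, 2 with a pseudocount of 0.1%, 2 thinned, 2 without reagent, skin and food taxa, and 0 to 4 with 1 sample left out. With the replicate number as a block 0 genera and 0 families passed; samples correlated best with their own number in 2 of 4 cases, and the numbers are not shown to pair the samples.

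At family level the Shannon difference was 0.0743, taxa found -9.80 and R2 0.189. With 1 sample left out these were, at the lowest rank, -0.934 to -0.451, -55.5 to -43.9 and 0.294 to 0.435. The genera lost in all samples were 4 with a PBS mean of at least 0.05%, 0 with at least 1%, 5 listed at 0 after thinning, and 2 to 4 with 1 vancomycin sample left out. With the own day 0 library as baseline the log2 changes of Coprocola (0.60) and unclassified Dehalobacteriaceae (0.24) had the other sign. With day 0 libraries of at least 1000 reads alone, they did not. The causes were not tested. Replicate 6, with 9179 reads, limits which losses could be seen there.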
